A study of Mus musculus with 6 samples.

Results

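Serpins are a family of protease inhibitors that share a fold with an exposed stretch, the reactive center loop, which a protease cuts as bait. The cut traps the protease and the inhibitor in a dead complex, so that the letters of the loop set which protease is caught. The liver secretes many of them into plasma, among them alpha-1-antitrypsin, antithrombin and C1 inhibitor, while a few members carry hormones or assist protein folding and inhibit nothing. The mouse carries several copies of the genes for alpha-1-antitrypsin (Serpina1) and for the antichymotrypsin group (Serpina3), where humans have fewer.

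The genes described here were the protein-coding genes whose symbol starts with Serpin in the GENCODE M21 annotation, 61 of the 54532 entries with an Ensembl identifier. Liver RNA of wild-type mice was sequenced in 3 libraries from a high-fat diet (HFD) group and in 3 from a group on the same diet with allantoin in the drinking water (HFD+Allantoin-H). Allantoin is an oxidation product of uric acid, and its high dose was given for the last 4 weeks, after 4 weeks on HFD alone. The labels name concentrations of 0.06 and 0.3 mg/mL without tying a library to either, and the study's methods give 0.3 mg/mL for the Allantoin-H group. The methods also describe male C57BL/6J mice aged 8 weeks at entry. Both groups carried the diet and no livers of mice on a standard diet were analysed here, so every difference is between HFD-fed mice with and without the supplement. The labels name 6 separate samples and give no date, batch or pairing.

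Library totals ran from 11326372 to 14601457 counts. The mitochondrial chromosome took 36.4%, 20.1% and 17.9% of all counts in HFD and 7.50%, 6.90% and 11.3% in HFD+Allantoin-H. Levels are therefore given as CPM, counts brought to a common library total with TMM factors, which were 0.756 to 0.951 in HFD and 1.12 to 1.19 in HFD+Allantoin-H. Albumin stood between 54402 and 82145 CPM, so hepatocyte RNA dominated every library. HFD replicate 2 also held Adipoq at 51.4 CPM and Plin1 at 49.2 CPM, which mark adipocytes and stood at 0.0733 CPM or lower in every other library. Of 10 macrophage markers 3 were called higher in HFD+Allantoin-H and of 10 stellate cell markers 6 were called higher. In the same test, described below, 11.3% of all tested genes were called higher and 13.0% lower. Of 10 hepatocyte markers 2 were higher and 2 lower, and 1 of 4 tested neutrophil markers and 1 of 3 tested bile duct markers were lower. In such bulk tissue a change in the number of cells of a type and a change in RNA per cell cannot be told apart.

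Of the 61 genes, 29 had enough counts to be tested, 23 had no count in any library, and the remaining 9 never passed 31 counts in a library. In the quasi-likelihood test of edgeR, with p-values adjusted after Benjamini and Hochberg over the 12795 tested genes, 6 of the 29 were higher in HFD+Allantoin-H (Serpina6, Serpina3m, Serpina3n, Serpind1, Serpinb6a and Serpinb9). A further 3 were lower (Serpina11, Serpina12 and Serpina1c), and 20 did not pass. That is 31.0% of the tested members (20.7% higher, 10.3% lower), where 24.3% of all tested genes were called (11.3% higher, 13.0% lower). The CPM of the groups did not overlap for 11 of the 29, or 37.9%, against 44.3% of all tested genes. The median log2 fold change was 0.035 over the tested members and -0.030 over all tested genes. The share called lower lies near that of all tested genes, and the share called higher lies above it. The latter rests on 6 genes, and its difference from all tested genes was not tested. The results below are those of single genes and of the makeup of the families.

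**Figure D1:**
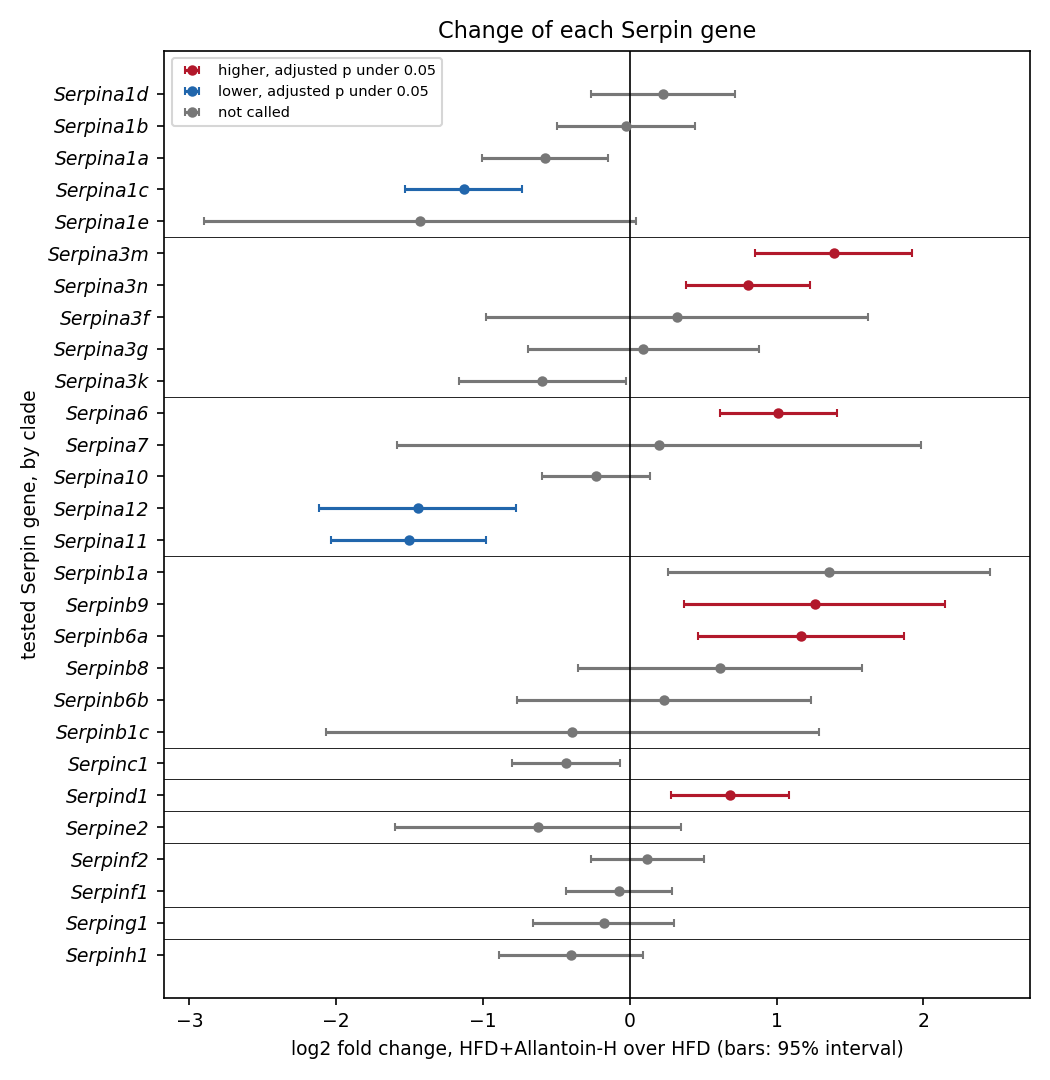
Log2 fold change of the tested Serpin genes reported here, HFD+Allantoin-H over HFD, with its 95% interval, grouped by clade between the horizontal lines. Genes called higher are red, genes called lower are blue and the others are grey. Called changes run from -1.51 (Serpina11) to 1.39 (Serpina3m), and neighbouring members of a clade lie on opposite sides of 0.

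Of these genes 23 lie in a single cluster on chromosome 12, at chr12:103614786-104414329 in GRCm38, and 14 of the 23 were tested. The cluster held 3 of the genes called higher and all 3 called lower, and the 15 tested genes elsewhere in the genome held 3 called higher and 0 called lower. Over all tested genes 11.3% were called higher and 13.0% lower, and the difference between the cluster and the rest was not tested. In chromosomal order, Serpina1c, Serpina11 and Serpina12 were lower, and Serpina6 on one side and Serpina3m and Serpina3n on the other were higher. Tested genes that were not called lay among them. Serpina1b, Serpina1d and Serpina1a lie between Serpina6 and Serpina1c, and Serpina1e lies between Serpina1c and Serpina11. Serpina3f, Serpina3g and Serpina3k lie between Serpina12 and Serpina3m. Serpina9, which lies between Serpina11 and Serpina12, had 1 to 22 counts per library and was not tested.

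**Figure D2:**
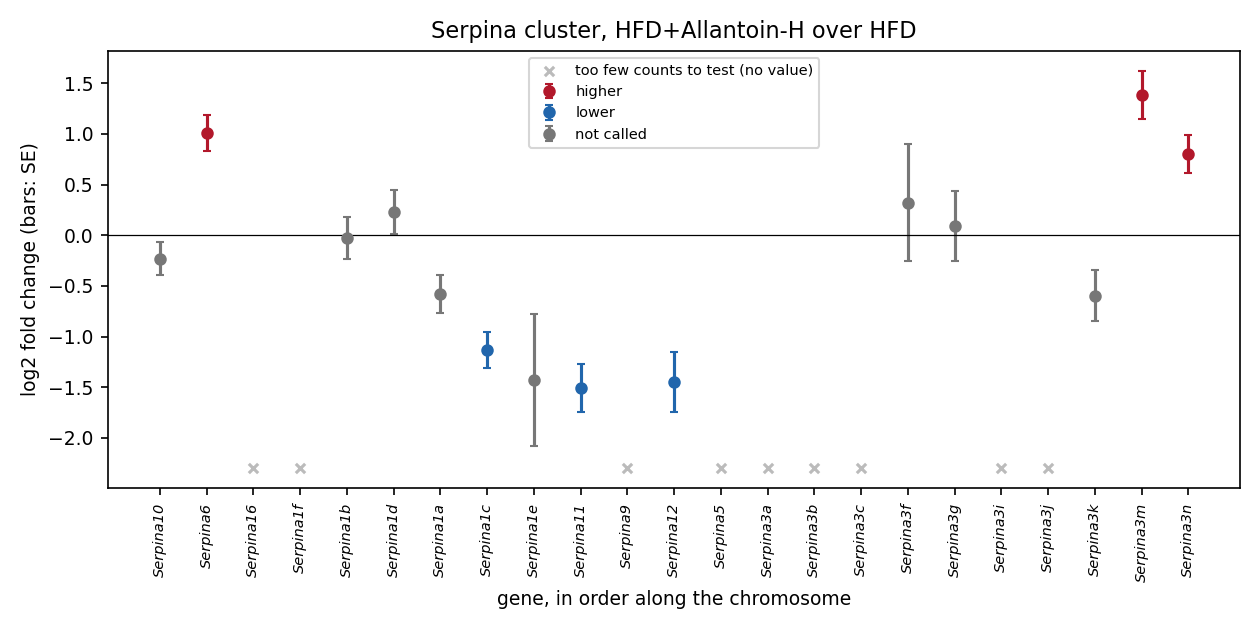
Log2 fold change (points) with its standard error (bars) for the Serpin genes of chromosome 12, placed in their order along the chromosome and not to distance. Crosses at the foot mark the 9 genes with too few counts to test. The 3 genes called lower lie between Serpina6 (1.01) and Serpina3m (1.39), with genes that were not called among them.

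Alpha-1-antitrypsin is the main plasma inhibitor of neutrophil elastase. Which protease each of its 5 expressed copies catches was not tested. The copies are alike over most of their coding sequence and differ more densely in the loop. Their coding sequences were 96.3% to 98.7% identical in pairs. In the 81 coding bases from the hinge of the loop to the conserved proline and phenylalanine behind it, 18 positions differed among the 5. These bases are shown because the loop sets which protease is caught. In pairs the copies were 85.2% to 93.8% identical there. They also differ outside these bases, so reads from elsewhere in the transcripts can tell copies apart too. The bases were taken from GENCODE M21 transcripts (GRCm38, all on the minus strand), and capitals mark the positions that differ among the 5.
Serpina1a, chr12:103853750-103853830: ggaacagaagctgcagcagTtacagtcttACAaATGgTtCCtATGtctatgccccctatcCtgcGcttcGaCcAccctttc
Serpina1b, chr12:103728317-103728397: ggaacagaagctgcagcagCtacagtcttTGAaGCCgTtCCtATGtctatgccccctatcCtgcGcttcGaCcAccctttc
Serpina1c, chr12:103895087-103895167: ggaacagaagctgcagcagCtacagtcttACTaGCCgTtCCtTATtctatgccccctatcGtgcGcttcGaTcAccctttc
Serpina1d, chr12:103763755-103763835: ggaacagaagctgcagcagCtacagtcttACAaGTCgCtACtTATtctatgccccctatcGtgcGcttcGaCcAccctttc
Serpina1e, chr12:103947093-103947173: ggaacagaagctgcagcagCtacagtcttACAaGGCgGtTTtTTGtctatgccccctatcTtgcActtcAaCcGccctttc
Serpina1e differed from each of the others at 10 to 12 of the 81 bases, the pair Serpina1c and Serpina1d at 5. Outside the loop the likeness is such that many reads could come from more than 1 copy. Of all stretches of 100 bases in the transcripts, 69.3% of those of Serpina1c also occur in another gene, 42.8% of those of Serpina1a, 29.3% of those of Serpina1d, 14.8% of those of Serpina1b and 14.4% of those of Serpina1e. How the counting treated such reads is not given in the sources used here, so the level of each copy is uncertain to that extent, and that of Serpina1c most.

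Serpina1c (ENSMUSG00000079015, chr12:103894926-103904887) was the alpha-1-antitrypsin copy that was called. It stood at 2028, 2484 and 2406 CPM in the HFD libraries and at 985, 1030 and 1141 CPM in the HFD+Allantoin-H libraries. Every HFD+Allantoin-H library lay below every HFD library. Serpina1c fell by 1.13 on the log2 scale (SE 0.18, adjusted p = 0.00455, edgeR), 2.19-fold lower, and it was called in all 15 alternative settings. An antisense transcript, B430119L08Rik, shares 429 exon bases with Serpina1c and stood at 9.24 to 33.1 CPM. Whether strand was used in counting is not given, so reads of the pair cannot be told apart, though the antisense gene is listed at a far lower level.

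Serpina1a stood at 2398, 2996 and 2204 CPM in HFD and at 1696, 1823 and 1571 CPM in HFD+Allantoin-H. The groups did not overlap, but the log2 fold change of -0.58 (SE 0.19) missed the threshold at adjusted p = 0.0543. With DESeq2 (adjusted p = 0.0107), with limma-voom, without the mitochondrial chromosome and without HFD replicate 3 it was called lower. Serpina1b, the copy with the most counts in HFD+Allantoin-H, did not differ detectably. It stood at 4411, 6470 and 4974 CPM in HFD and at 4985, 5371 and 5204 CPM in HFD+Allantoin-H (log2 fold change -0.027, 95% interval -0.50 to 0.44). Serpina1d stood at 1299, 2135 and 1465 CPM against 1921, 1949 and 1867 CPM, within the HFD range, with a log2 fold change of 0.23 (SE 0.22, adjusted p = 0.473).

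Serpina1e was the copy that varied most between libraries of a group. It stood at 4164, 6616 and 1947 CPM in HFD and at 2223, 2158 and 335 CPM in HFD+Allantoin-H. HFD replicate 3 was the lowest of its group and HFD+Allantoin-H replicate 6 was the lowest of all, 6.63-fold under the highest library of its group. The log2 fold change of -1.43 has a 95% interval of -2.90 to 0.039 and was not called (adjusted p = 0.137). Without the filter on low counts it was called (-1.39, adjusted p = 8.44e-08). The counts of Serpina1e are the same in both fits and its change hardly moved, so the smaller p-value gives no added support. Serpina1f had no count in any library, which allows up to 3 counts or 0.177 to 0.328 CPM.

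A sum over the copies does not depend on how counted reads were split among them, but would still miss reads that were dropped or given to a copy outside the family such as the pseudogene Gm8893. Serpina1 summed to 14294, 20699 and 12992 CPM in HFD and to 11814, 12334 and 10120 CPM in HFD+Allantoin-H. The lowest HFD library lay above the highest HFD+Allantoin-H library, but the log2 fold change of -0.49 (SE 0.24) did not pass in a fit of the whole table with the family as 1 entry (adjusted p = 0.174). The sum was lower under every scaling tried, by 0.071 on the log2 scale with library size alone and by up to 0.50 with upper quartiles.

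The makeup of the sum also differed between these libraries, though the shares themselves were not tested. Serpina1b made up 33.5% ± 4.2 of the Serpina1 counts in HFD and 45.7% ± 5.0 in HFD+Allantoin-H (SD, n = 3). Serpina1d went from 10.2% ± 1.1 to 16.8% ± 1.4, Serpina1c from 14.9% ± 3.3 to 9.32% ± 1.69, and Serpina1e from 25.4% ± 9.1 to 13.2% ± 8.6. A ratio of 2 copies inside a library needs no scaling between libraries. Serpina1c held 0.460, 0.384 and 0.484 counts per count of Serpina1b in HFD and 0.198, 0.192 and 0.219 in HFD+Allantoin-H. These ranges lie apart, a log2 difference of -1.12 that ran from -1.22 to -1.05 as each library was left out. The ratio of Serpina1e to Serpina1b overlapped between the groups. Over 8 such pairs of paralogs, 7 did not overlap, each at the exact permutation p of 0.10 that is the smallest 3 against 3 libraries can give (0.114 adjusted over the 8 pairs). The pairs were chosen by name and several share Serpina1b or Serpina3k, so they do not count as independent results. Among all tested genes, the CPM of the groups did not overlap for 44.3%, but that is a share of single genes. The share for ratios of 2 genes was not computed, and the 8 pairs are not all that the families allow.

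**Figure D3:**
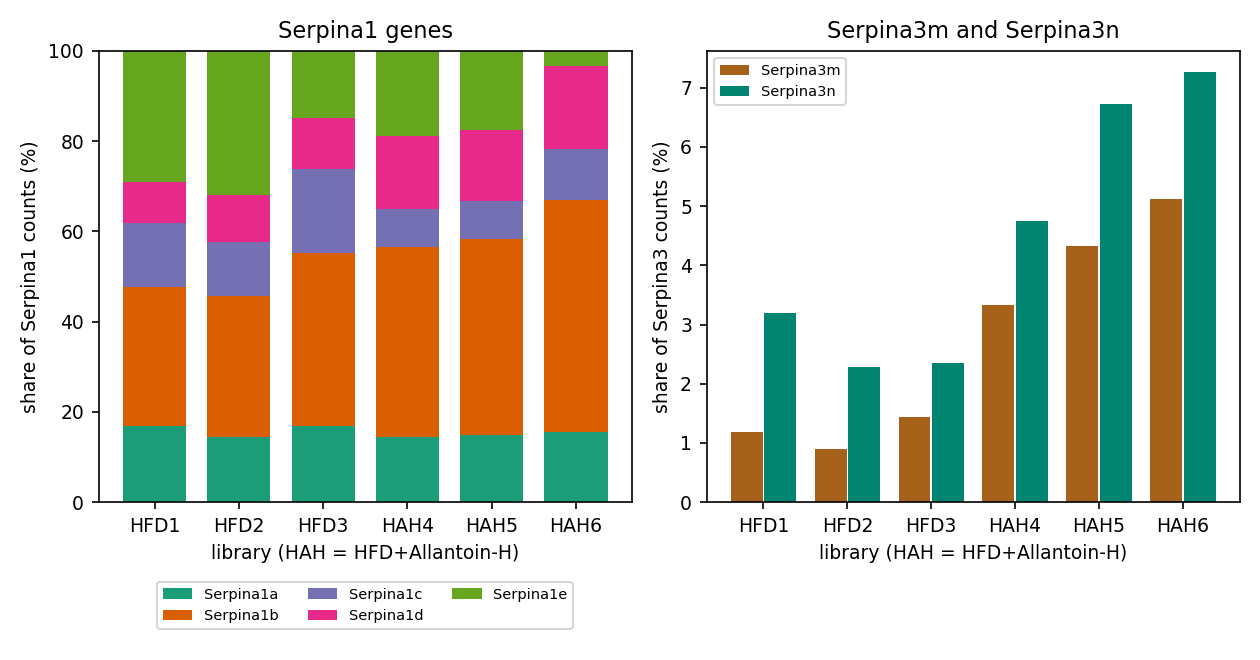
Left, the share of each Serpina1 gene in the Serpina1 counts of each library, stacked to 100%. Right, the share of Serpina3m and Serpina3n in the Serpina3 counts, where Serpina3k makes up nearly all of the rest. Serpina1b takes 30.8% to 38.3% in HFD and 42.2% to 51.4% in HFD+Allantoin-H, and Serpina3m takes 0.891% to 1.45% and 3.33% to 5.12%.

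The stretch before the start of transcription is shared among the copies too. In the RefSeq promoter windows (GRCm38.p6), the longest run of letters common to the 5 copies within 250 bases before the start is 55 bases, and no other gene of the 27025 with a window holds it on the coding strand. Its identity in the 5 copies was set by this choice, and its part in their levels was not tested. Its last base lies between 1 (Serpina1d) and 63 (Serpina1e) bases before the start.
Serpina1a to Serpina1e, shared: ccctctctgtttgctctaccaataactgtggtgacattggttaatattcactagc
It lies at chr12:103863625-103863679 in Serpina1a, chr12:103738200-103738254 in Serpina1b, chr12:103904962-103905016 in Serpina1c, chr12:103773634-103773688 in Serpina1d and chr12:103956960-103957014 in Serpina1e.

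The Serpina3 genes are the mouse relatives of the human gene for antichymotrypsin. Their loops differ far more than those of Serpina1. Serpina3k, Serpina3m and Serpina3n carry most of the counts, and their loop stretch is shown because it holds 42 differing columns among 90 when the 3 are aligned. Capitals mark the bases in those columns (GENCODE M21 transcripts, plus strand).
Serpina3k, chr12:104345269-104345352: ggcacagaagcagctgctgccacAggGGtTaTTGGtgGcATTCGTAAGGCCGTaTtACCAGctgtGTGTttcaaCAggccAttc
Serpina3m, chr12:104393769-104393858: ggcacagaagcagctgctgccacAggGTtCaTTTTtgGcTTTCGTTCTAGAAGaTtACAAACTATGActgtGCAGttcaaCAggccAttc
Serpina3n, chr12:104413448-104413537: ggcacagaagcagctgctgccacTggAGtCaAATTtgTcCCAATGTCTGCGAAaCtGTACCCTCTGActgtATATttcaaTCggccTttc
Over the whole coding sequence, Serpina3k and Serpina3m were 92.7% identical and each was 84.2% to 85.9% identical to Serpina3n. Serpina3k and Serpina3m also share 60 exon bases in the annotation, since a transcript of Serpina3m starts at the first exon of Serpina3k. Of all stretches of 100 bases, 4.85% of those of Serpina3k, 6.09% of those of Serpina3m and 0.204% of those of Serpina3n also occur in another gene.

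Serpina3m (ENSMUSG00000079012) showed the largest increase among the called Serpin genes. It stood at 93.1, 125 and 166 CPM in HFD and at 284, 327 and 395 CPM in HFD+Allantoin-H. Every HFD+Allantoin-H library lay well above the highest HFD library. Serpina3m rose by 1.39 on the log2 scale (SE 0.24, adjusted p = 0.00567, edgeR), 2.62-fold, and was called in all 15 alternative settings.

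Serpina3n (ENSMUSG00000021091, chr12:104406729-104414329), an inhibitor of leukocyte proteases and granzyme B that rises in the acute phase response, also rose. It stood at 253, 320 and 270 CPM in HFD and at 405, 507 and 561 CPM in HFD+Allantoin-H, without overlap. The log2 fold change was 0.80 (SE 0.19, adjusted p = 0.0160). It was not called without HFD+Allantoin-H replicate 5 (0.79, adjusted p = 0.0709) or without replicate 6 (0.70, adjusted p = 0.0630).

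Serpina3k, the most abundant of them and a binder of tissue kallikrein, did not share the rise. It stood at 7547, 13580 and 11007 CPM in HFD and at 7815, 6686 and 6748 CPM in HFD+Allantoin-H. HFD replicate 1 lay within the range of the HFD+Allantoin-H libraries. The log2 fold change was -0.60 (SE 0.25, adjusted p = 0.113), and without HFD replicate 1 Serpina3k was called lower (-0.80, adjusted p = 0.0257), as it was with DESeq2 (adjusted p = 0.0429).

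Serpina3f and Serpina3g were scarce and did not differ detectably. Serpina3f stood at 0.873, 3.95 and 7.61 CPM in HFD and at 4.77, 6.33 and 4.66 CPM in HFD+Allantoin-H (log2 fold change 0.32, adjusted p = 0.716). Serpina3g stood at 6.44, 10.1 and 18.6 CPM against 10.6, 13.0 and 14.1 CPM (0.092, adjusted p = 0.872). The other 5 Serpina3 genes were not tested, and the highest count among them was the 31 of Serpina3c in HFD replicate 2, the library with adipocyte markers, where the other libraries held 0 to 4.

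Because Serpina3k dominates, the Serpina3 sum followed it. The sum stood at 7897, 14041 and 11465 CPM in HFD and at 8523, 7541 and 7724 CPM in HFD+Allantoin-H, which overlap. Its log2 fold change was -0.49 (SE 0.25, adjusted p = 0.176) and became a call without HFD replicate 1 (-0.69, adjusted p = 0.0365). Serpina3m made up 1.17% ± 0.28 of the sum in HFD and 4.26% ± 0.90 in HFD+Allantoin-H, and Serpina3n 2.61% ± 0.51 and 6.24% ± 1.32 (SD, n = 3). Per count of Serpina3k, Serpina3m held 0.0123, 0.00921 and 0.0151 counts in HFD and 0.0363, 0.0488 and 0.0586 in HFD+Allantoin-H. That is a log2 difference of 1.97 without overlap, between 1.79 and 2.16 as each library was left out.

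Among the hormone carriers, Serpina6 (ENSMUSG00000060807, chr12:103646630-103657212) encodes corticosteroid-binding globulin, the plasma carrier of glucocorticoids. It stood at 118, 131 and 135 CPM in HFD and at 211, 285 and 281 CPM in HFD+Allantoin-H. The groups lay far apart beside the narrow spread of the HFD libraries. Serpina6 rose by 1.01 on the log2 scale (SE 0.18, adjusted p = 0.00601, edgeR), 2.02-fold, and was called in all 15 alternative settings. No stretch of 100 bases of its transcripts occurs in another gene.

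Serpina7 encodes thyroxine-binding globulin, the plasma carrier of thyroid hormone. It stood at 59.8, 19.9 and 187 CPM in HFD and at 90.6, 27.3 and 188 CPM in HFD+Allantoin-H. The libraries of a group differed 9.38-fold in HFD and 6.91-fold in HFD+Allantoin-H, so that the log2 fold change of 0.20 has a 95% interval of -1.59 to 1.98 (adjusted p = 0.881). The high libraries, HFD replicate 3 and HFD+Allantoin-H replicate 6, were the low ones for Serpina1e. Spp1, a marker of bile duct cells, was also highest there, at 110 and 73.0 CPM against 16.3 to 26.7 CPM in the other libraries. None of the other bile duct markers examined was highest of its group in HFD+Allantoin-H replicate 6. Among them, Sox9 stood at 43.6 CPM in HFD replicate 3 but at 2.16 CPM in HFD+Allantoin-H replicate 6, the lowest of all libraries. The part of bile duct cells in the levels of Serpina7 and Serpina1e was not tested.

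**Figure D4:**
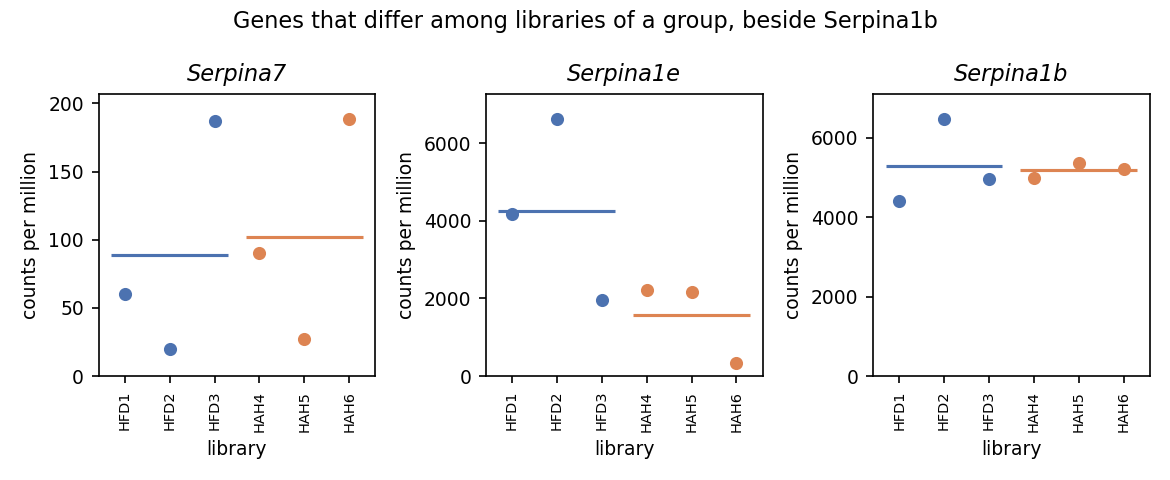
CPM of Serpina7, Serpina1e and, for comparison, Serpina1b in each library (points; blue HFD, orange HFD+Allantoin-H), with the mean of each group (lines). HFD3 and HAH6 (replicate 6 of HFD+Allantoin-H) are the highest of their groups for Serpina7 and the lowest for Serpina1e, while Serpina1b runs from 4411 to 6470 CPM.

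Serpina12 (ENSMUSG00000041567, chr12:104028769-104044443) encodes vaspin, an adipokine that inhibits kallikrein 7 and is also made in liver. It stood at 157, 163 and 157 CPM in HFD and at 90.9, 42.1 and 42.2 CPM in HFD+Allantoin-H. All HFD+Allantoin-H libraries were lower, replicate 4 the least so. Serpina12 fell by 1.44 on the log2 scale (SE 0.30, adjusted p = 0.0105), 2.72-fold lower, and HFD replicate 2 with its adipocyte markers was level with the other HFD libraries. Without HFD+Allantoin-H replicate 5 the change was -1.25 (adjusted p = 0.0537).

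Serpina11 (ENSMUSG00000063232, chr12:103980243-103989957) had the largest decrease among the tested members. It stood at 108, 72.6 and 59.7 CPM in HFD and at 31.4, 25.6 and 27.6 CPM in HFD+Allantoin-H. The groups did not overlap, and Serpina11 fell by 1.51 on the log2 scale (SE 0.23, adjusted p = 0.00445), 2.84-fold lower, a call made in all 15 alternative settings. The transcript Gm28577 shares 669 of its exon bases on the same strand and had no count in any library. Serpina10, which inhibits factor Xa together with protein Z, stood at 217, 176 and 202 CPM in HFD and at 153, 171 and 184 CPM in HFD+Allantoin-H (log2 fold change -0.23, adjusted p = 0.326).

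Of the inhibitors of coagulation, heparin cofactor II (Serpind1, ENSMUSG00000022766, chr16:17331371-17343575), which inhibits thrombin, rose. It stood at 179, 250.4 and 243 CPM in HFD and at 344, 362 and 375 CPM in HFD+Allantoin-H, without overlap. The log2 fold change was 0.68 (SE 0.18, adjusted p = 0.0245), 1.61-fold. It was no longer called without HFD+Allantoin-H replicate 4 (0.72, adjusted p = 0.0731), 5 (0.69, adjusted p = 0.0912) or 6 (0.66, adjusted p = 0.0805).

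Antithrombin (Serpinc1, chr1:160978585-161005863), the main inhibitor of thrombin and factor Xa, lay on the other side of 0. It stood at 1786, 1941 and 1783 CPM in HFD and at 1384, 1396 and 1288 CPM in HFD+Allantoin-H. Although the groups did not overlap, the log2 fold change of -0.44 (SE 0.16, 95% interval -0.80 to -0.070) missed the threshold at adjusted p = 0.0788. It was called lower with DESeq2 (adjusted p = 0.0167) and with the length and GC trend removed (-0.64, adjusted p = 0.0209), and stood at -0.022 with library size alone. Zbtb37 shares 2942 exon bases on the other strand and stood at 3.61 to 21.5 CPM.

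The inhibitors of fibrinolysis and of contact and complement activation were not called. Alpha-2-antiplasmin (Serpinf2), which inhibits plasmin, stood at 458, 558 and 492 CPM in HFD and at 564, 599 and 474 CPM in HFD+Allantoin-H (log2 fold change 0.12, 95% interval -0.27 to 0.51). C1 inhibitor (Serping1) stood at 702, 1063 and 729 CPM and at 635, 744 and 826 CPM (-0.18, 95% interval -0.66 to 0.30). The intervals leave changes of these sizes possible.

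Protease nexin 1 (Serpine2) stood at 8.41, 23.2 and 15.0 CPM in HFD and at 12.2, 13.1 and 4.86 CPM in HFD+Allantoin-H (-0.63, adjusted p = 0.313). Pigment epithelium-derived factor (Serpinf1), a member without inhibitory action, stood at 357, 433 and 374 CPM and at 366, 395 and 344 CPM (-0.074, 95% interval -0.44 to 0.29). The groups overlapped for both genes.

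Serpinh1 (HSP47) is a collagen chaperone of the endoplasmic reticulum. It stood at 14.2, 24.6 and 20.7 CPM in HFD and at 14.8, 15.1 and 15.1 CPM in HFD+Allantoin-H (log2 fold change -0.40, adjusted p = 0.203). Without HFD replicate 1 it was called lower (-0.59, adjusted p = 0.0384). Of 10 collagen genes whose products it folds, 1 was called, Col1a1, from 7.85 ± 1.98 to 15.5 ± 6.0 CPM (SD, n = 3, log2 fold change 0.97, adjusted p = 0.0491).

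The Serpinb genes encode serpins that stay in the cell and are made by leukocytes, epithelia and other cells. Of 26, 17 had no count and 6 were tested, all with means under 24 CPM. Serpinb6a (ENSMUSG00000060147, chr13:33917918-34002794), an inhibitor of cathepsin G, stood at 4.26, 10.1 and 5.18 CPM in HFD and at 15.0, 13.7 and 15.2 CPM in HFD+Allantoin-H. The groups did not overlap, and it rose by 1.17 on the log2 scale (SE 0.31, adjusted p = 0.0268). It shares exon bases with Nqo2 (762) and Ripk1 (241) on the other strand, which stood at 49.5 to 76.5 CPM and at 17.4 to 32.1 CPM and were not called. The call was lost without HFD replicate 1 (0.94, adjusted p = 0.0554) and without each HFD+Allantoin-H library (adjusted p = 0.0793 to 0.0842).

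Serpinb9 (ENSMUSG00000045827, chr13:33003250-33017957), the inhibitor of granzyme B, stood at 2.62, 5.83 and 9.11 CPM in HFD and at 10.9, 14.0 and 17.6 CPM in HFD+Allantoin-H. The groups did not overlap, by a small margin, and it rose by 1.26 on the log2 scale (SE 0.39, adjusted p = 0.0462). Of the 6 fits that each leave out 1 library, it was called only in the fit without HFD replicate 3 (elsewhere adjusted p = 0.0629 to 0.150), and it was not called with the length and GC trend removed (1.11, adjusted p = 0.0528). Serpinb1a, an inhibitor of neutrophil elastase, stood at 3.49, 10.2 and 14.0 CPM and at 12.1 to 33.2 CPM, with a log2 fold change of 1.36 that was not called (adjusted p = 0.0704). It was called higher with DESeq2 (adjusted p = 0.0154), with library size alone (0.0319), without the filter (2.01e-07) and without HFD replicate 3 (0.0272). Its change without the filter was 1.39 on the same counts, so the smaller p-value there gives no added support. Serpinb8, Serpinb6b and Serpinb1c stood at 0.338 to 6.21 CPM and were not called, apart from Serpinb8 without HFD replicate 3 (1.20, adjusted p = 0.0473). Macrophage markers summed to 162 to 384 CPM in HFD and 435 to 502 CPM in HFD+Allantoin-H, and stellate cell markers to 199 to 329 CPM and 453 to 522 CPM. Neutrophil markers summed to 12.6 to 19.8 CPM and 4.32 to 11.4 CPM. The part of these cells in the levels of the Serpinb genes was not tested.

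**Figure D5:**
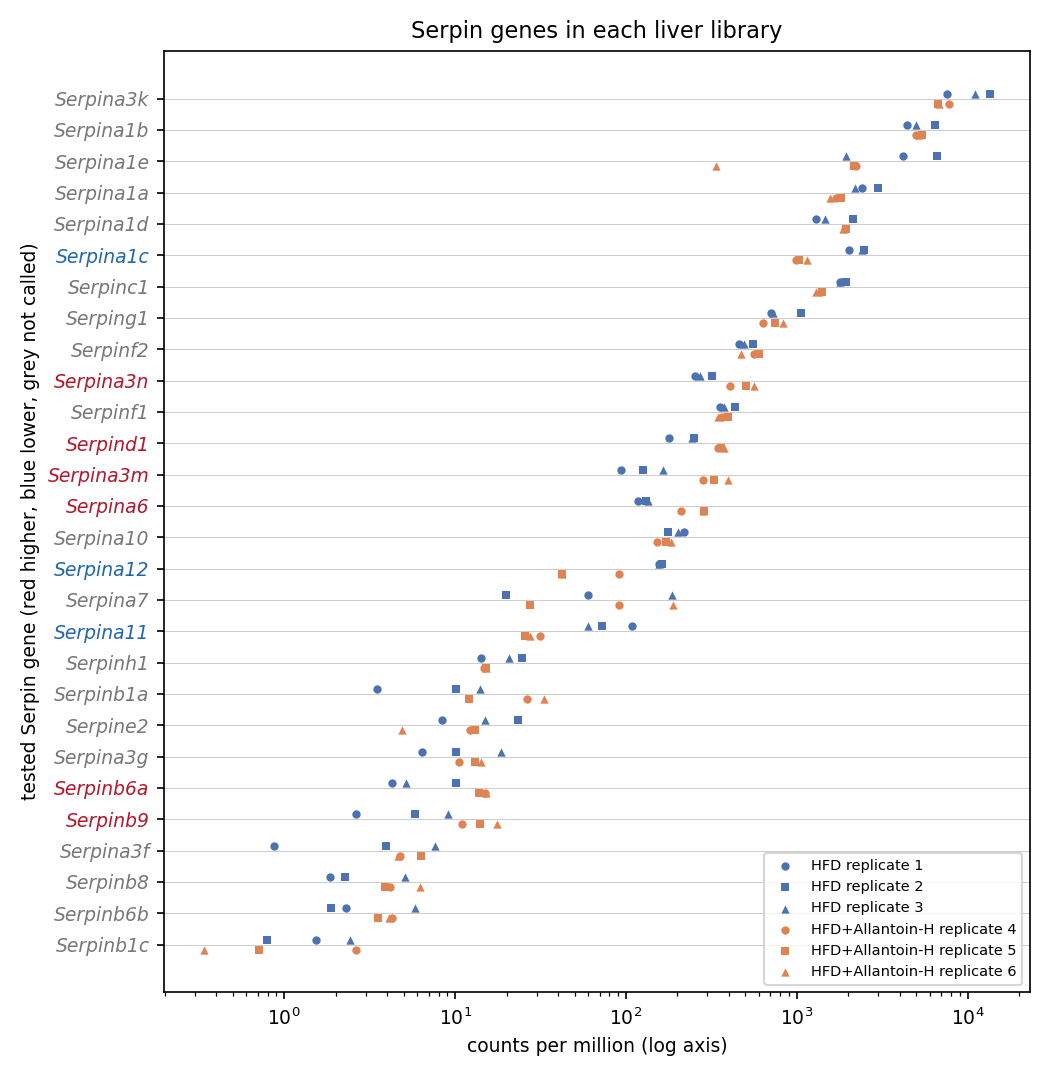
CPM of the tested Serpin genes reported here in each of the 6 libraries on a log axis, ordered by mean level, with gene names in red (called higher), blue (called lower) or grey (not called). Levels run from under 1 CPM for Serpinb1c to 13580 CPM for Serpina3k, and the called genes lie at 2484 CPM and below, with Serpina1c the highest.

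Levels of different genes can be compared only per length, and here CPM per kb of the union of a gene's exons was used. In HFD the group means were 5207 for Serpina3k, 2624 for Serpina1e, 2188 for Serpina1b, 1694 for Serpina1c, 1382 for Serpina1a and 1172 for Serpina1d. In HFD+Allantoin-H they were 3444 for Serpina3k, 2148 for Serpina1b, 1372 for Serpina1d, 972 for Serpina1e, 926 for Serpina1a and 773 for Serpina1c. Serpina3k led in both groups, and Serpina1c passed from above Serpina1a and Serpina1d to below them. C1 inhibitor followed in each group, at 358 and 316 CPM per kb. Antithrombin had more counts, with means of 1836.5 and 1356 CPM against 831 and 735 CPM for C1 inhibitor. Its exon union is 8546 bases against 2325 for C1 inhibitor, so it stood at 215 and 159 CPM per kb. The order of genes therefore depends on the annotated exon union. Serpina3m moved from 74.5 to 195 CPM per kb, from below to above Serpind1, which moved from 102 to 164.

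All 61 genes together took 1.99%, 3.54% and 2.74% of the counts in HFD and 2.89%, 2.78% and 2.45% in HFD+Allantoin-H. These ranges overlap, with means of 2.76% and 2.70% (two-sided exact permutation test, p = 1). With the mitochondrial chromosome left out of the total, the shares were 3.12%, 4.44% and 3.33% in HFD and 3.12%, 2.98% and 2.76% in HFD+Allantoin-H (exact p = 0.10, the smallest possible).

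The proteases that serpins inhibit, and other genes of their biology, were described from lists. Of 12 coagulation and fibrinolysis proteases, 1 was higher and 3 were lower, and these counts and those of the lists that follow are to be read against the 24.3% of all tested genes that were called. Plasminogen (Plg), whose product alpha-2-antiplasmin inhibits once active, rose from 788 ± 186 to 1337 ± 104 CPM (SD, n = 3, log2 fold change 0.76, adjusted p = 0.0278). Plasma kallikrein (Klkb1), a target of C1 inhibitor, fell by 0.98 on the log2 scale, from 367 ± 39 to 185 ± 11 CPM (adjusted p = 0.00498). Protein C (Proc) fell by 0.80 (adjusted p = 0.00977) and factor XI (F11) by 0.64 (adjusted p = 0.0346). Prothrombin (F2), once active as thrombin, is the target of antithrombin and heparin cofactor II. It stood at 880 to 1207 CPM in HFD and 1199 to 1310 CPM in HFD+Allantoin-H and was not called (0.23, adjusted p = 0.384).

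Of 8 complement proteases 1 was called, factor B (Cfb), which rose from 0.432 ± 0.262 to 2.68 ± 0.50 CPM (adjusted p = 0.0103). The proteases of C1 that C1 inhibitor blocks, C1ra and C1s1, had log2 fold changes of -0.037 and -0.086 and were not called. Of 6 tested leukocyte and lysosomal proteases, cathepsin S (Ctss) rose from 15.7 ± 6.2 to 33.8 ± 7.5 CPM (adjusted p = 0.0314). Proteinase 3 (Prtn3), a target of alpha-1-antitrypsin, fell by 3.52 on the log2 scale (adjusted p = 0.0127), from 22.1, 8.49 and 2.26 CPM to 1.03, 0.532 and 1.28 CPM. Neutrophil elastase (Elane) and granzyme B (Gzmb) stood at 1.89 CPM or lower in every library and were not called.

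Of 19 tested plasma and tissue protease inhibitors of other families, 4 were higher and 2 were lower. The broad-range inhibitor Pzp rose by 0.74 on the log2 scale (adjusted p = 0.0240), and the metalloproteinase inhibitors Timp2 and Timp3 rose by 1.58 (adjusted p = 0.0252) and 2.25 (adjusted p = 0.0175). Fetuin-B (Fetub) fell by 1.35 (adjusted p = 0.00511). Mug1 (0.93, adjusted p = 0.0415) and Ambp (-0.64, adjusted p = 0.0277) complete the called genes, and are named because they are the remaining ones. Vitronectin (Vtn), a plasma glycoprotein of the cell matrix, fell by 0.95 (adjusted p = 0.0132), the only 1 called of 6 tested genes on the list of serpin receptors and vitronectin.

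Of 23 acute phase and STAT3 response genes, 2 were higher and 2 were lower, and their median log2 fold change was -0.44. The receptor chains Il6st (0.85, adjusted p = 0.0118) and Il6ra (0.72, adjusted p = 0.0347) rose. Haptoglobin (Hp) fell by 0.98 (adjusted p = 0.0362). On a list of 14 genes, transcription factors known at serpin genes and the growth hormone receptor Ghr, the factor Cebpb fell by 1.30, from 257 ± 15 to 105 ± 16 CPM (adjusted p = 0.00340), and is also the second lower gene of the acute phase list. The glucocorticoid receptor gene Nr3c1 rose by 0.60 (adjusted p = 0.0258). Of 21 genes for the secretion and quality control of serpins, Man1b1, which trims misfolded glycoproteins for disposal, rose by 0.74 (adjusted p = 0.00938). Sec24a and Syvn1 fell by 0.66 (adjusted p = 0.0260) and 1.80 (adjusted p = 0.0307), and Syvn1 ran from 82.0 to 461 CPM within HFD.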

How the data were processed

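The authors deposited raw counts of reads per gene for 6 libraries (RNeasy kit, SMARTer mRNA-seq libraries, Illumina HiSeq), made from filtered reads. The submitters' processing notes name GRCm38 and mm10, and the aligner, the counting tool and the use of strand are not given in the sources used here. Of 54961 entries, 429 without an Ensembl identifier were left out, at 0.197% to 0.306% of counts per library. Symbols and positions came from GENCODE M21, in which 37 identifiers were not found.

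Counts were tested with edgeR 4.0.16 (R 4.3.3): TMM, filterByExpr, the quasi-likelihood test with group as the only term, and Benjamini-Hochberg adjustment over 12795 genes, called at adjusted p under 0.05. Standard errors were derived from the F statistic. A second fit replaced the Serpina1 and the Serpina3 genes by their sums. The labels do not say that the 3 samples of a group came from separate animals, so p-values measure the spread between these samples, which may be technical. On simulated data with 1000 genes changed by a log2 fold change of 2 in size, 844 were recovered and 59 of 903 calls were false. Transcripts were compared with BLAST 2.17.0 and MAFFT 7.526, and promoter windows came from RefSeq (GRCm38.p6), which held 52 of the 61 genes. The alternatives comprised scaling by RLE, by upper quartiles and by library size alone, DESeq2 1.42.0, limma-voom (limma 3.58.1), testing without a filter or with a minimum of 10 counts per library, no mitochondrial chromosome, a length and GC trend removed, and each library left out. Leaving out libraries for the ratios of paralogs was added after seeing the data.

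The members, the gene lists and the alternatives were chosen with earlier results of these data known. Every Serpin gene entered the counts, and some genes are not reported here. Genes named with values were the called members, the tested Serpina1 and Serpina3 genes, further members chosen by name, and up to 4 genes of smallest p in each other list. F2, C1ra, C1s1 and Gzmb, as protease targets, and Mug1, Ambp and Ghr were named outside this rule, after their values were seen. Serpini1, among them, was not tested.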

Additional observations from a re-analysis of the deposited data

How the results depend on the processing

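No paired analysis was possible because the replicate numbers of the groups (1 to 3 and 4 to 6) are not shared. Serpina11, Serpina1c, Serpina3m and Serpina6 were called in all 15 alternatives, and no called gene changed sign in any. The number called higher, 6 in the reported test, was 5 to 7 in the 9 alternatives that keep all libraries and 2 to 8 as each library was left out (3 without HFD+Allantoin-H replicate 4, 2 without replicate 5 and 2 without replicate 6). Calls over all genes fell there too, from 1446 higher and 1666 lower to 596 and 700, 460 and 564, and 702 and 832. The number called lower, 3, was 6 with DESeq2, 6 without the filter (38 members tested), 5 without the mitochondrial chromosome and 2 to 5 as each library was left out (5 without HFD replicate 1). So 6 higher against 3 lower became 7 against 6 with DESeq2 and without the filter. Library size alone shifted the median of all genes by 0.415 on the log2 scale and that of the members to 0.38, and 5 uncalled genes then changed sign: Serpina1b (0.38), Serping1 (0.22), Serpinf1 (0.34), Serpina10 (0.19) and Serpinb1c (0.028). With the length and GC trend removed, Serpina1b (0.056) and Serpinf1 (0.063) changed sign, and Serpina1b did without the filter (0.012). Leaving out libraries changed the sign of Serpina7 (-0.60 to 1.37), Serpina3g (-0.20 to 0.61), Serpina3f (-0.15 to 1.11), Serpina1b (-0.14 to 0.15), Serping1 (-0.29 to 0.039), Serpinf1 (-0.13 to 0.013), Serpinb6b (-0.052 to 0.93) and Serpinb1c (-1.57 to 0.075), none of them called. The Serpina1 sum ran from -0.61 to -0.26 and the Serpina3 sum from -0.69 to -0.29 as libraries were left out. The difference in the share of all counts, -0.052 percentage points, was -0.68 without the mitochondrial chromosome and -0.44 to 0.34 as libraries were left out. The causes were not tested.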

Other observations

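Serpin entries that the annotation does not class as protein-coding were outside the comparisons above. Serpina4-ps1, an unprocessed pseudogene of the chromosome 12 cluster, stood at 180, 40.7 and 332 CPM in the HFD libraries and at 18.9, 14.0 and 13.6 CPM in the HFD+Allantoin-H libraries. The groups did not overlap, and it fell by 3.57 on the log2 scale (SE 0.63, adjusted p = 0.00623, edgeR), a larger size than that of any protein-coding member. Gm8893, an unprocessed pseudogene whose transcript is 98.8% identical to that of Serpina1a over 1242 bases, fell by 1.31 (SE 0.26, adjusted p = 0.00933), from 59.2, 60.7 and 101 CPM to 26.4, 37.8 and 24.8 CPM. The antisense transcript B430119L08Rik at Serpina1c fell by 0.99 (adjusted p = 0.0490). The other 6 entries, Serpina3h and Serpinb10 among them, had at most 8 counts in a library.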
